A study of Drosophila melanogaster with 10 samples.

Results

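Chemosensory receptors are the membrane proteins with which flies smell and taste. In Drosophila they form 3 large gene families: odorant receptors (Or), which form ion channels together with the co-receptor Orco, gustatory receptors (Gr), which include the sugar, bitter, and carbon dioxide receptors, and ionotropic receptors (Ir), which descend from glutamate receptors and work with the co-receptors Ir8a, Ir25a, and Ir76b. Apart from the co-receptors, most of these genes are normally active in a limited set of sensory neurons in the antenna, mouthparts, legs, or larval head. The members described here are the protein-coding genes of the RefSeq gene table whose symbol starts with Or, Gr, or Ir and a digit, together with Orco. There are 180 of them among the 13922 protein-coding genes of the main chromosome arms, and each family has 60. The rule reads only gene symbols, with no measured value in it, though the families were taken up with earlier results of these data known.

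Accessible chromatin was mapped by ATAC-seq, in which the Tn5 transposase cuts open DNA, in S2 cells, an embryo-derived line with features of blood cells. The 10 libraries came from cells given dsRNA at 10 µg/mL for 5 days against GAF (the GAGA factor), BAP170 (a subunit of the PBAP remodeler), NURF301 (a subunit of the NURF remodeler), or NURF301+BAP170, or against LACZ as the control, with 2 knockdown replicates each. The authors deposited 1 list of 39806 summits in 15615 peaks, called on all libraries together. A peak is a stretch of open chromatin and its summits are the places where the signal tops out. The score of a summit is −log10 of its q value from peak calling, so that a higher score means stronger evidence of signal over background. Because the list is pooled, it holds no value for a single treatment, replicate, or library depth, so nothing is said here on the knockdowns, and every share below describes genes in 1 list. Intervals are 95% Wilson intervals that reflect only the number of genes, and neighboring genes can share a summit. Of 10 blood cell genes, 6 had a summit no more than 500 bp from the annotated start or end, the same share as the 60.0% of all protein-coding genes, with the highest scores at the receptor kinase gene Pvr (513) and the scavenger receptor gene crq (463), while NimC1, Sr-CI, vkg, and Col4a1 had none there. Of 6 genes of neurons, elav, peb, and Syt1 had one, so these lists did not mark the cells as either type.

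Few chemosensory receptor genes had accessible chromatin near their boundaries. A summit within 500 bp of the annotated start or end was found at 31 of the 180 receptor genes (17.2%, interval 12.4 to 23.4%), against 60.0% of all protein-coding genes. A summit inside the gene was found at 20 receptor genes (11.1%, interval 7.31 to 16.5%), against 48.7% of all protein-coding genes. Both at once, a summit inside the gene and within 500 bp of its boundary, held for 14 receptor genes (7.78%), against 40.6% of all protein-coding genes. In total 37 receptor genes had a summit near a boundary or inside, 17 of them only near a boundary, 6 only inside, and 14 both, and 143 had neither. Receptor genes were somewhat shorter than the average gene, with a median annotated length of 1692 bp against 2163 bp, and length was not adjusted for. Inside them there were 0.228 summits per kb, or 0.180 without the very long Ir41a, against 0.335 summits per kb of all protein-coding genes.

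Receptor genes also lay farther from the nearest accessible chromatin. The median distance from a receptor gene's boundaries to the nearest summit was 4537 bp, with quartiles at 1147 and 13590 bp, against a median of 179 bp over all protein-coding genes, with quartiles at 61 and 2708 bp. No summit lay within 10 kb of a boundary for 56 receptor genes (31.1%), against 11.6% of all protein-coding genes. The members farthest from any summit were Gr36a, Gr36b, and Gr36c, a row of gustatory receptor genes on 2L, with nearest summits 158380, 156237, and 154669 bp away. Orco itself had its nearest summit 13147 bp away, and Or67d, the receptor for the male pheromone cis-vaccenyl acetate, 47452 bp away. Around the 500 bp limit, the last members inside it were Ir60e at 423 bp and Ir93a at 475 bp, and the first outside were Ir48c at 658 bp and Gr32a at 684 bp.

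The 3 families gave similar shares with overlapping intervals. Near a boundary, 9 of 60 Or genes had a summit (15.0%, interval 8.10 to 26.1%), as did 9 of 60 Gr genes (15.0%) and 13 of 60 Ir genes (21.7%, interval 13.1 to 33.6%). The Ir count included 5 neighboring genes on 3R, Ir94d to Ir94h, without which 8 of 55 Ir genes had a summit (14.5%). Inside the gene, 4 Or genes (6.67%), 8 Gr genes (13.3%), and 8 Ir genes (13.3%) had one. The median distance to the nearest summit was 7494 bp for Or, 3201 bp for Gr, and 3786 bp for Ir genes. For 24 Or genes, 18 Gr genes, and 14 Ir genes no summit lay within 10 kb. These differences between families are descriptions and were not tested.

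**Figure D1:**
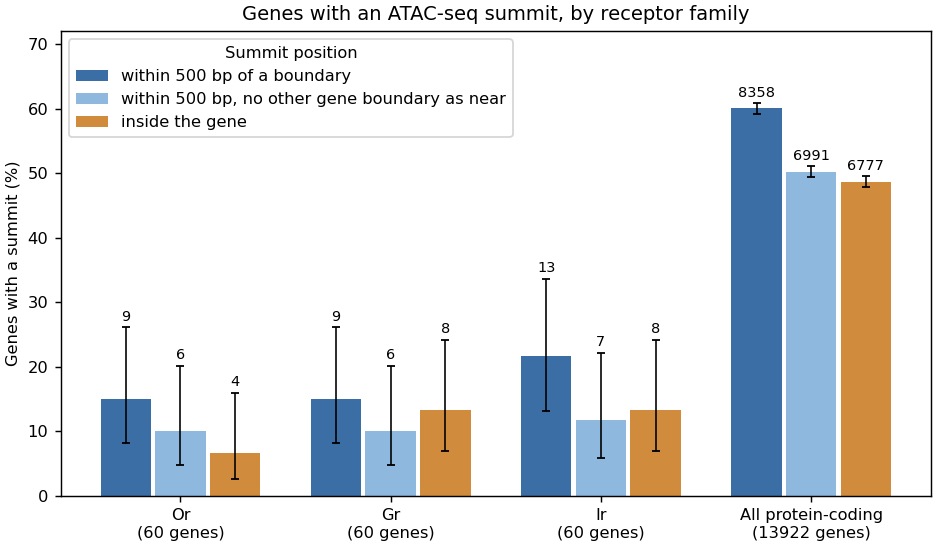
Share of genes (%) that have a summit no more than 500 bp from a boundary, that have such a summit to which no boundary of another gene was as near, or that have a summit inside the gene, for Or, Gr, and Ir genes and for all protein-coding genes. Bars are shares, lines are 95% Wilson intervals, and numbers above them are gene counts. Every receptor bar stands at or below 21.7%, while the bars of all protein-coding genes stand at 60.0, 50.2, and 48.7%.

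The median score at receptor genes was also below that of all protein-coding genes. Where a receptor gene had a summit near a boundary, the strongest such score had a median of 29.2 (31 genes), against 102.6 over the 8358 protein-coding genes with one. Without Ir94d to Ir94h the median over receptor genes was 49.1 (26 genes). The strongest score was below 21.9, the median of the whole list, at 14 of the 31 receptor genes (45.2%), against 15.9% of the protein-coding genes with a summit near a boundary. On either side of that value were Ir94e, with a strongest score of 27.1, and Ir94h, with 19.6. By family, the median of the strongest score was 14.3 for Or, 90.7 for Gr, and 27.1 for Ir genes, over 9, 9, and 13 genes. Summits outside the receptor genes were stronger than those inside. The 43 distinct summits near a boundary but outside the member had a median score of 27.1. The 29 that were both near a boundary and inside it had a median of 4.73, with 26 of the 29 below the list median. Ir94d, Ir94e, Ir94f, Ir94g, and Ir94h held 5, 3, 3, 2, and 3 of these 29. By gene, the median strongest score was 29.2 near a boundary and 12.2 inside for receptor genes. All protein-coding genes went the same way, with 102.6 near a boundary and 71.6 inside.

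A summit near a receptor gene can belong to the promoter of the gene next to it, so each summit was also assigned to the nearest annotated boundary of any gene. Only 19 receptor genes (10.6%, interval 6.86 to 15.9%) had a summit within 500 bp to which no boundary of another gene was as near, against 50.2% of all protein-coding genes. They were 6 Or, 6 Gr, and 7 Ir genes. Among genes with any summit near a boundary, such a summit was found at 61.3% of receptor genes and 83.6% of all protein-coding genes. The remaining 12 of the 31 had all their summits nearer, or as near, to another gene. At 18 of the 31 receptor genes the strongest summit was of that kind, and its score had a median of 92.2. At the other 13 the strongest summit was nearest to the receptor gene's own boundary, with a median of 14.3. The strongest summits of all protein-coding genes were not split in this way.

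The highest scores near receptor genes mostly belonged to summits that were closer to another gene. Beside Ir60b, a taste receptor gene for sugar in the pharynx (2R, 24515685 to 24517458), the strongest summit scored 374 and lay 376 bp from Ir60b but 11 bp from the boundary of Letm1, which encodes a mitochondrial inner membrane protein. Beside Or46a (2R, 10139264 to 10142074) a summit scoring 323 lay 286 bp away and 22 bp from a boundary of CG18011. The strongest summit of the sugar receptor gene Gr61a (3L, 841451 to 843701), at 276, lay 57 bp outside the gene and 34 bp from JMJD5, which encodes a JmjC domain protein. In each of these cases the neighbor's boundary was the nearer. The same held for Gr97a (129, nearest to the tetraspanin gene Tsp97E), Ir60e (126, CG13585), Ir31a (118, Ip259), Ir25a (114, the farnesyltransferase subunit gene Fnta), Gr59f (102, the tRNA synthetase complex gene AIMP3), Gr98d (93.6, the kinesin gene Klp98A), and Gr63a (90.7, the Ragulator subunit gene Lamtor4). Of the 10 receptor genes with the highest score near a boundary, only Or43a had its own boundary nearest to its strongest summit.

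**Figure D2:**
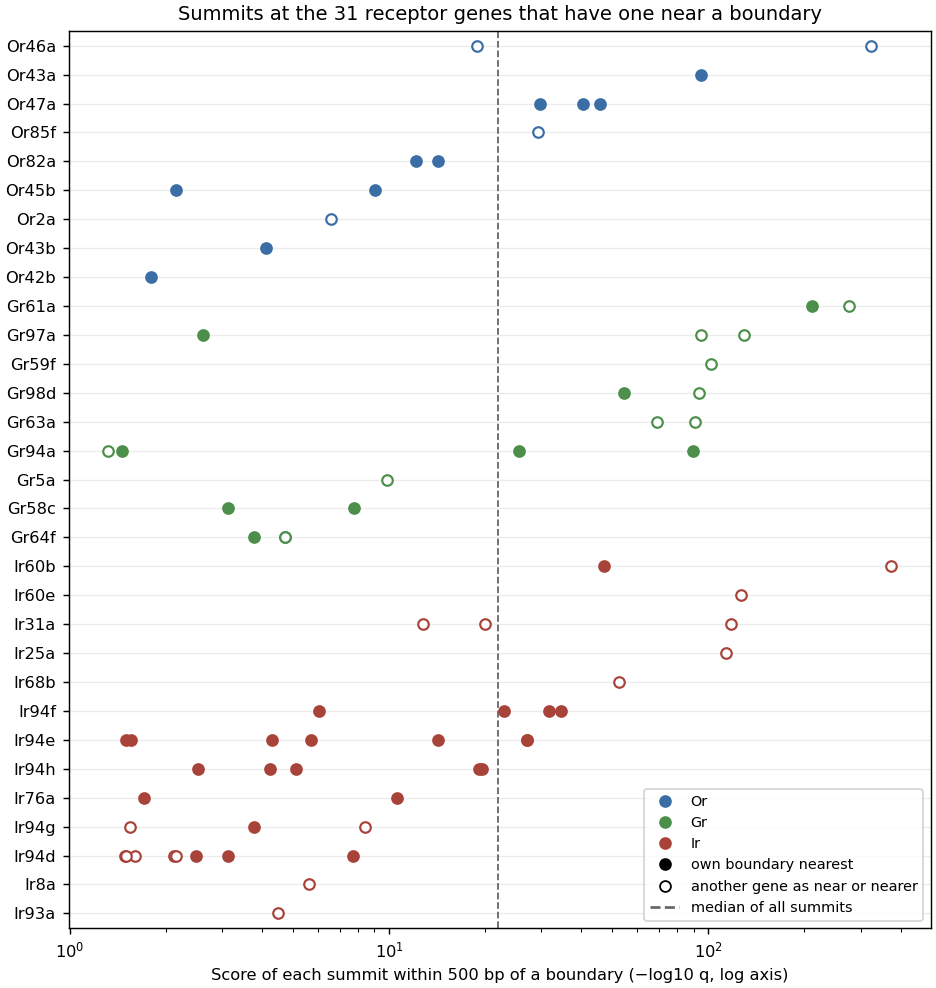
Score (−log10 q, log axis) of every summit within 500 bp of a boundary of the 31 receptor genes that have one, 1 row per gene, ordered by the strongest score within each family. Filled points are summits nearest to the receptor gene's own boundary, open points are summits with another gene as near or nearer, and the dashed line is the list median of 21.9. The points above 100 are open except for Gr61a at 211.

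Summits assigned to a receptor gene's own boundary were mostly weak, with a median score of 7.78 over 43 summits, 29 of them below the list median. Of the 43, Ir94d, Ir94e, Ir94f, Ir94g, and Ir94h held 4, 7, 4, 1, and 5, and the median was not taken without them. Some summits stood higher. Gr61a had the strongest, at 211, located 77 bp inside the gene, on the other side of the boundary from the summit of 276 that was nearest to JMJD5. Both belong to the same peak, and 168 bp separate the inner summit from JMJD5. Or43a (2R, 7232840 to 7234913), an isolated odorant receptor gene, had 1 summit with a score of 94.9, 108 bp outside its boundary and 9354 bp from the next gene, pk. Gr94a (3R, 23051689 to 23052903) lies within p53, the tumor suppressor homolog, and had summits of 89.5 and 25.6 at 320 and 15 bp outside its boundary, both inside p53. Gr98d had a summit of 54.6 at 79 bp, next to the stronger one nearer to Klp98A, and Ir60b one of 47.3 at 136 bp. Or47a (2R, 11250368 to 11251913) had 3 summits at 16, 226, and 397 bp outside its boundary, with scores of 29.8, 45.7, and 40.4, all inside the cuticle protein gene Cpr47Ea, whose own boundaries were farther. Or82a (3R, 4256972 to 4258444), which responds to geranyl acetate, had 2 summits inside it, at 374 and 178 bp from its boundary, with scores of 12.2 and 14.3. Of these genes only Or43a and Or82a were isolated, with no other gene boundary within 2 kb of their summits.

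Outside the Ir94 genes, the other members with an own summit had low scores. The strongest own summit scored 9.04 at Or45b, 4.12 at Or43b, and 1.79 at Or42b, a receptor for fruit esters. It scored 7.78 at Gr58c, 3.78 at Gr64f, and 2.62 at Gr97a. Ir76a, an antennal receptor for amines, had own summits of 1.71 and 10.6 in it. Its 2 highest summits, 94.9 and 54.6, lay well inside it, 34 and 149 bp from the upper boundary of the overlapping gene CG14102. The remaining receptor genes with a summit near a boundary had it nearer to another gene. They were Ir68b (52.6, nearest to the Y-box protein gene yps), Or85f (29.2, CG34117), Or2a (6.59, the splicing factor gene crn), and Gr5a, Ir8a, and Ir93a, which are described by role.

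Receptor genes were then sorted by their position relative to other genes. Genes were called inside when wholly contained in another gene of any type with a different interval. They were called beside when another gene overlapped them or had a boundary within 1000 bp, and isolated otherwise. Gr10a and Or10a have the same annotated interval, as do Gr64b and Gr64c, and each was counted as a separate gene beside another. Of 38 isolated receptor genes, 3 had a summit near a boundary (7.89%, interval 2.72 to 20.8%), against 25.7% of all isolated protein-coding genes. Of 113 receptor genes beside another gene, 25 had one (22.1%, interval 15.5 to 30.6%), against 68.0% of all protein-coding genes in that position. Of 29 receptor genes inside another gene, 3 had one (10.3%, interval 3.58 to 26.4%), against 34.4% of all such genes. In each of the 3 positions the receptor share was below that of all protein-coding genes, and its interval ended below it. The intervals take genes as independent, though neighboring genes can share a summit, so the difference was not tested. The families differed in position, with 21 of the 60 Or genes isolated but only 7 Gr and 10 Ir genes.

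The counts also differed with the kind of neighbor. Among the 113 receptor genes beside another gene, 69 had at least 1 neighbor that is not a protein-coding receptor gene. Of these 69, 23 had a summit near a boundary (33.3%, interval 23.4 to 45.1%), and 12 had an own summit (17.4%, interval 10.2 to 28.0%). Of 44 that had only other receptor genes beside them, 2 had a summit near a boundary (4.55%, interval up to 15.1%). These were Ir94e and Ir94f, and both had an own summit. Of all protein-coding genes beside another gene, 68.0% had a summit near a boundary and 56.6% an own summit. Many receptor genes lie in rows. With a gap of up to 1000 bp allowed, 70 of the 180 formed 25 clusters of up to 6 genes. Of these 70 genes, 8 had a summit near a boundary (11.4%), against 23 of the 110 members outside clusters (20.9%). A summit near a boundary or inside was found at 20.6% of all receptor genes and 63.4% of all protein-coding genes. In 18 clusters, with 50 genes, no member had such a summit. Among these rows were Or22a and Or22b, the Or33 genes, the Gr22 and Gr36 genes on 2L, Ir52a to Ir52d, Ir75a to Ir75c, Ir94a to Ir94c, and the Ir7 row on X.

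**Figure D3:**
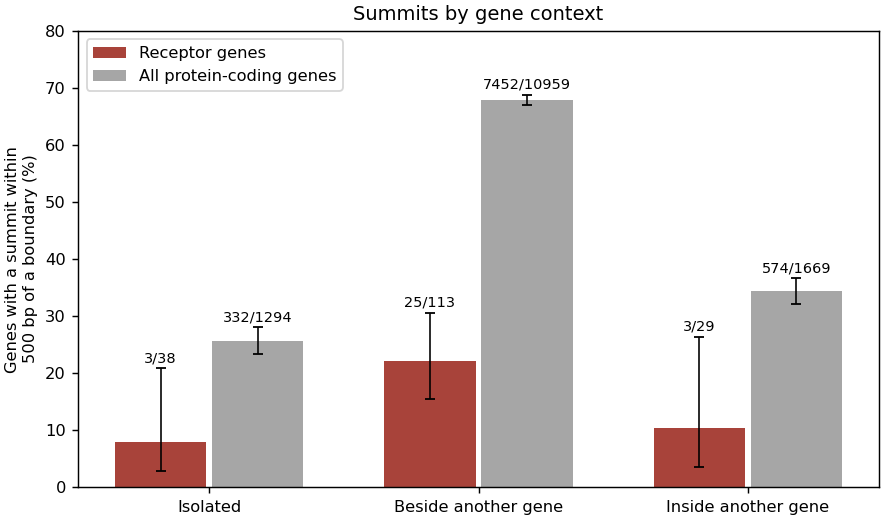
Share of genes (%) that have a summit no more than 500 bp from a boundary, for receptor genes and for all protein-coding genes that are isolated, beside another gene, or inside another gene. Lines are 95% Wilson intervals and labels give the counts. Receptor genes stand at 7.89, 22.1, and 10.3%, below all protein-coding genes at 25.7, 68.0, and 34.4%.

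The isolated members with any summit were Or43a, Or82a, Ir94h, Ir40a, and Ir41a. Ir40a, a receptor for dry air (2L, 22189526 to 22214376), had a single summit with a score of 162 inside the gene, 10753 bp from its nearer boundary and 19632 bp from any other gene. It was the strongest summit inside an Ir gene. Of the members inside another gene, summits near a boundary were found only at Or46a and Or45b, each within an antisense RNA gene, and at Gr94a within p53. Or46a, of 2811 bp, shares its upper boundary with its antisense RNA gene and nearly fills it, at 2813 bp. Gr64e, inside the annotated interval of Gr64d, had 2 weak summits, of 2.52 and 1.71, that the 2 genes share. None of the 9 Ir genes inside another gene had a summit near a boundary or inside (interval for each up to 29.9%). Such a summit was found at 13.8% of all receptor genes inside another gene and at 36.0% of all such protein-coding genes. Among the 9 were Ir56a within the serotonin receptor gene 5-HT1A and Ir60a within nord.

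Ir94d to Ir94h were a run of receptor genes with many summits. These genes belong to a clade of taste receptors, and each had 4 to 11 summits inside, together with summits near its boundaries. Ir76a, with 6 summits inside and 2 near, and Gr58c, with 4 inside of which 2 were near, fell in the same range. Over the 5 genes there were 42 distinct summits in 7 peaks, with scores of 1.49 to 34.5 and a median of 5.87. Ir94d had 11 summits inside, the highest scoring 15.2. Those from 65 to 874 bp from its lower boundary also lay inside the overlapping gene CG17380, while the highest did not. Ir94e had 6 summits inside, the highest scoring 15.2, with stronger summits of 27.1 and 27.0 at 303 and 443 bp beyond its upper boundary. Ir94f had 6 summits inside, among them the highest of the group at 34.5, while Ir94g had 4, with a highest score of 22.2, and Ir94h 5, with a highest of 19.6. In place of a single strong summit at a gene boundary, summits were spread along the whole length of these genes.

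The wider stretch around these genes was also rich in summits. From the lower boundary of Ir94d to the upper boundary of Ir94h, 86.4 kb, the list has 208 summits in 51 peaks, or 2.41 per kb, against 0.301 per kb over 3R. Between Ir94e and Ir94f lie 74.5 kb with 167 of these summits, with a median score of 9.37 and a highest of 217, and CG4374 takes up most of it. The annotated interval of CG4374 is 63595 bp long. Ir94a, Ir94b, and Ir94c, which share the name but lie at 22113427 to 22119454 on 3R, had no summit near a boundary or inside.

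**Figure D4:**
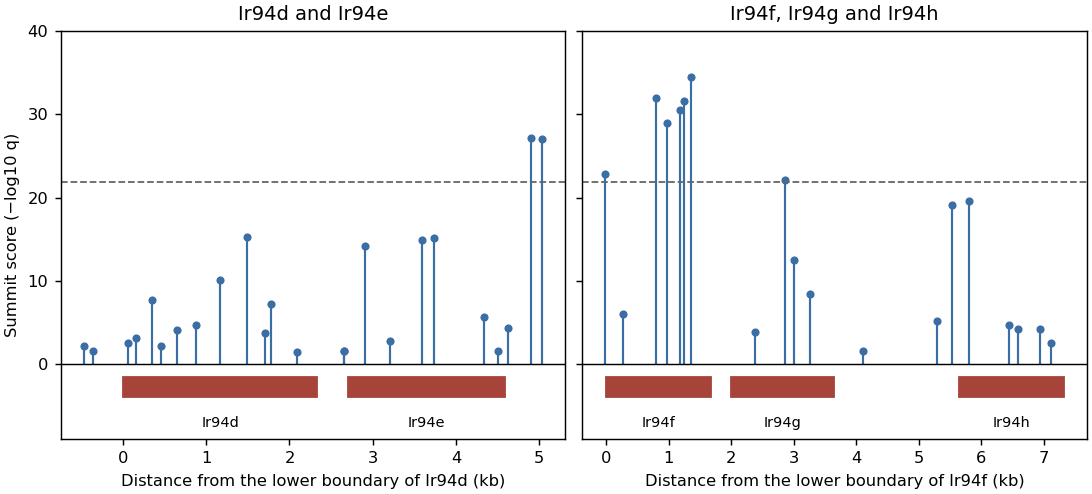
Scores (−log10 q) of the summits near or inside Ir94d and Ir94e (left) and Ir94f, Ir94g, and Ir94h (right) against the distance (kb) from the lower boundary of the first gene. Red bars are the annotated genes and the dashed line is the list median of 21.9. Summits run along all 5 genes, and the highest, 34.5, lies in Ir94f.

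Ir41a was the other member with many summits. It encodes an antennal receptor for polyamines and is annotated at 2R, 4917519 to 5021955, a length of 104437 bp, by far the longest of the members. It had 42 summits inside in 16 peaks, with scores of 1.31 to 24.3 and a median of 5.63, and none within 500 bp of a boundary. The summits began 6794 bp from the lower boundary and ended 55569 bp from it, so that the upper 48867 bp held none. The 3 that reached the list median lay in 1 peak of 10 summits near the middle of the gene. No other gene boundary was within 16 kb of any of them. Without Ir41a, 66 distinct summits lay inside receptor genes, with a median score of 4.69, and 56 of them scored below the list median.

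**Figure D5:**
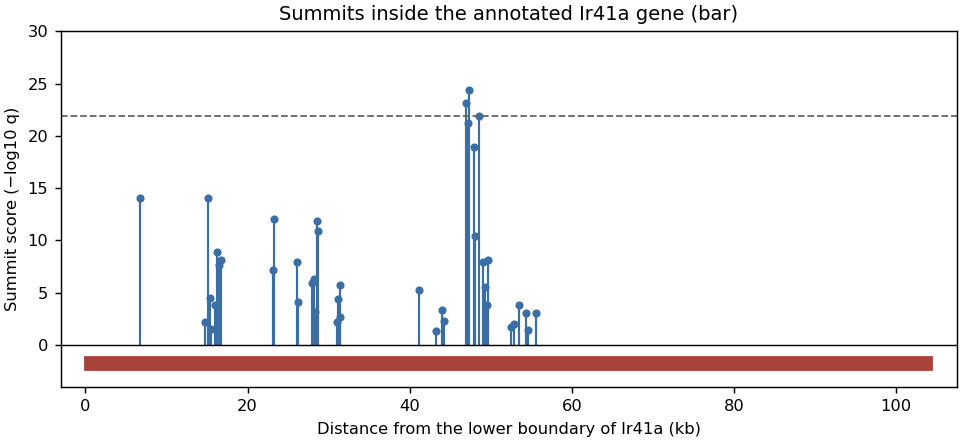
Scores (−log10 q) of the 42 summits inside Ir41a against the distance (kb) from its lower boundary. The bar is the annotated gene and the dashed line the list median of 21.9. Summits occupy the lower part of the gene, up to 55.6 kb, and 3 of them reach the line.

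Summits were next compared by the role of the receptor. Over all receptor genes, 17.2% had a summit near a boundary and 11.1% inside, against 60.0% and 48.7% of all protein-coding genes. The role groups hold few genes, and differences between them were not tested. Of the 4 co-receptors, Ir25a had a summit of 114 that was 49 bp from Fnta and 202 bp from Ir25a, and Ir8a one of 5.63 that was 39 bp from CG12121. Orco and Ir76b had none, and no co-receptor had a summit inside or an own summit. Of the carbon dioxide receptor pair, Gr63a had summits of 90.7 and 69.0, both nearer to other genes, and Gr21a, its partner, had its nearest summit 27504 bp away. Of 9 sugar receptor genes, Gr61a, Gr64f, and Gr5a had a summit near a boundary. That of Gr5a scored 9.87 and was nearer to Tre1, which encodes a G protein-coupled receptor. Inside, 4 of the 9 had a summit (44.4%, interval 18.9 to 73.3%), namely Gr61a, Gr64f, and the overlapping Gr64d and Gr64e. The median strongest score inside these was 3.62. None of the 6 broadly expressed bitter receptor genes had one near a boundary (interval up to 39.0%). Of these 6 genes Gr32a alone had summits inside, with scores of 1.54 to 2.33. None of the 4 pheromone receptor genes, Or47b, Or65a, Or67d, and Or88a, had a summit near or inside (interval for each up to 49.0%). Gr28b, a receptor linked to warmth and light avoidance, had 2 summits inside, of 1.38 and 4.98, and Ir93a, which is needed for temperature and humidity sensing, had one of 4.48 beside the ribosomal protein gene RpS30. Of 29 taste Ir genes of the Ir20a clade, 7 had a summit near a boundary (24.1%), and these were Ir60b, Ir60e, and Ir94d to Ir94h.

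Shares for other gene families are given as a description, without a test. Of 51 odorant-binding protein genes, which encode secreted carriers of odorants, 6 had a summit near a boundary (11.8%), with the highest score, 290, at Obp99b. Of 29 pickpocket genes, which encode sodium channels with roles in taste and touch, 7 had one (24.1%), and the CD36-related genes Snmp1 and Snmp2 had none. Cuticle protein genes of the Cpr group, which also lie in rows but serve the body surface, had one in 9 of 70 cases (12.9%). The share was 17.2% of receptor genes and 60.0% of all protein-coding genes. The odorant-binding protein, pickpocket, and Cpr genes had median strongest scores near a boundary of 24.5, 83.4, and 33.0, against 29.2 for receptor genes. They had a summit inside at 5.88, 10.3, and 14.3%, and median distances to the nearest summit of 3447, 1919, and 2441 bp. By chromosome, receptor genes with a summit near a boundary numbered 2 of 31 on 2L, 10 of 46 on 2R, 5 of 35 on 3L, 11 of 43 on 3R, and 3 of 25 on X, against 58.8, 61.1, 61.1, 62.3, and 54.9% of all protein-coding genes on the same arms. No receptor gene had an own summit on 2L or on X, against 49.9% and 44.9% of all protein-coding genes there, and the highest score near one on X, at Gr5a, was 9.87. The median of the strongest score on X was 35.0 over all protein-coding genes with a summit near a boundary, below the 113 to 129 of the 2L, 2R, 3L, and 3R arms.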

How the data were processed

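The authors performed ATAC-seq on 10 S2 cell libraries and deposited 1 BED list of summits whose score is −log10 of the q value, called on pooled reads per the peak names in the file. Among the tools in the submitters' processing notes are Bowtie2 2.3.5.1 (an aligner) and MACS2 2.1.0.20150731 (a peak caller), with the build dm6. How reads were filtered or shifted for Tn5 is not given in the sources used here. The depth of each library is unknown. Columns without a mapped sample numbered 0.

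Gene intervals came from the RefSeq gene table of Release 6 (dm6). Strand, exons, and sequence were not used here, so the start and end of a gene were not distinguished and the planned motif counts were not run. The third BED column was taken as the summit position. Members, lists, and measures were chosen with earlier results of these data known. Genes named were those with a summit both near a boundary and inside, isolated members with a summit, the 10 highest scores near a boundary, the 5 members with most summits inside, the co-receptors, and members next to the list median. Others stand for a role list or cluster, or as the farthest members, chosen after their values were seen. No test was made, since the list has no replicates. The counting was tested on simulated data. Counts were made in Python 3.11.15 with pandas 2.3.3 and numpy 2.4.6, and figures with matplotlib 3.10.9.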

Additional observations from a re-analysis of the deposited data

How the results depend on the processing

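No paired analysis was possible because replicates are merged in the single summit list. Of 40 values under alternatives set earlier, 30 stayed within the main interval and 10 moved, with every moved share lower and the median score higher. The alternatives that moved a value only take summits away, so these directions were fixed beforehand. At 250 bp, 11.7% of all members and 13.3% of those beside another gene had a summit near a boundary. With the strongest summit of each peak, the share beside another gene was 15.0%. With summits at or above the list median, the shares were 9.44% of all members, 6.67% of Or, 11.7% of Ir, 2.63% of isolated, and 12.4% of those beside another gene, 3.33% had a summit inside, and the median strongest score was 94.9. Chosen after seeing the data, counting own summits alone gave 10.6% of all members, 11.7% of Ir genes, and 12.4% of members beside another gene. The share inside another gene was 24.1% at 1000 bp and 3.85% with protein-coding neighbors only, that of isolated members 3.33% with neighbors within 2000 bp, and that of Gr genes 23.3% at 1000 bp. The median strongest score was 45.7 with 1 summit per peak, 14.3 with own summits alone, and 49.1 without Ir94d to Ir94h (also chosen after seeing the data). Under every alternative run, member shares and the median score stayed below those of all protein-coding genes. Weak regions below the peak caller's limit, and the accessibility of any single library, cannot be seen in this list.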
